A study of Mus musculus with 2 samples.

Results

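Foxp3 regulatory T cells of MC38 tumors were examined in a single-cell RNA sequencing experiment on CD45+ immune cells. The cells were chosen by their measured UMIs, where each UMI, or unique molecular identifier, stands for 1 RNA molecule caught in a droplet. A barcode was kept when it held at least 1000 UMIs, at most 25% mitochondrial UMIs, at least 1 UMI of Cd3d or Cd3g, at least 1 UMI of Foxp3, no UMI of Cd8a or Cd8b1 and at most 5 UMIs of C1qa, C1qb and C1qc together. This gate held 79 of the 8090 barcodes that passed the depth and mitochondrial limits, 52 from Control and 27 from IR tumors. MC38 is a mouse colon carcinoma line, here grown under the skin of WT mice. The Control library came from tumors that received no irradiation. The IR library came from tumors collected 4 days after they were irradiated once with 20 Gy. The cells of 4 tumors were pooled into each library. With 1 library per group there was no replicate, and no difference between the groups was tested.

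Regulatory T cells are CD4 T cells that restrain other immune cells. The transcription factor Foxp3 defines them and maintains their programme together with factors such as Helios (Ikzf2). They carry the inhibitory receptor CTLA-4 (Ctla4), the costimulatory receptor OX40 (Tnfrsf4) and the high-affinity IL-2 receptor chain CD25 (Il2ra), and in tumors they are known for an activated form that limits the response of other T cells. Interferons act on most cells through JAK and STAT proteins and switch on a shared set of antiviral genes, the interferon-stimulated genes.

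The libraries held 48593879 UMIs in Control and 42406461 in IR, and 4679 and 3411 barcodes passed the depth and mitochondrial limits. The sample labels name a narrower population (CD45+CD11b+Ly6Chi) than the CD45+ sort in their protocol, and both libraries held CD3 cells. The gate cells had a median of 4350.5 UMIs in Control (1216 to 20862) and 9096 in IR (1889 to 44193), and a median of 1729 and 2870 genes. Summed over the gate, 287906 UMIs were available in Control and 322134 in IR, and the deepest cell gave 7.25% and 13.7% of them. No barcode was shared between the 2 gates. Doublets were not removed, and the 6% of barcodes with the highest Scrublet score held 0 gate cells in Control and 3 in IR.

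The label was checked against 4 markers in the gate, in CD4 T cells without a Foxp3 UMI (CD4 gate, 52 and 50 cells), in CD8 T cells (CD8 gate, 224 and 174 cells) and in macrophage barcodes (1893 and 609). Levels are in CPM, the UMIs of a gene per 1000000 UMIs summed over the cells, with exact 95% Poisson intervals that cover counting error only. Foxp3 (ENSMUSG00000039521, chrX:7573644-7595245 on GRCm38), the gene of the rule, stood at 438 CPM (365 to 521) in the Control cells and at 301 CPM (244 to 367) in the IR cells. In macrophage barcodes it stood at 0.717 and 0.131 CPM. Ikzf2, which the rule did not use, stood at 917 and 646 CPM, against 162 and 82.7 CPM in the CD4 gate and 133 and 101 CPM in the CD8 gate. Ctla4 stood at 1869 and 1024 CPM, against 451 and 264 CPM in the CD4 gate. Tnfrsf4 stood at 1330.3 and 1214 CPM, against 613 and 413 CPM in the CD4 gate. All 3 were higher in the gate than in every other population of the same library, so the label regulatory T cells held for these markers.

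**Figure D1:**
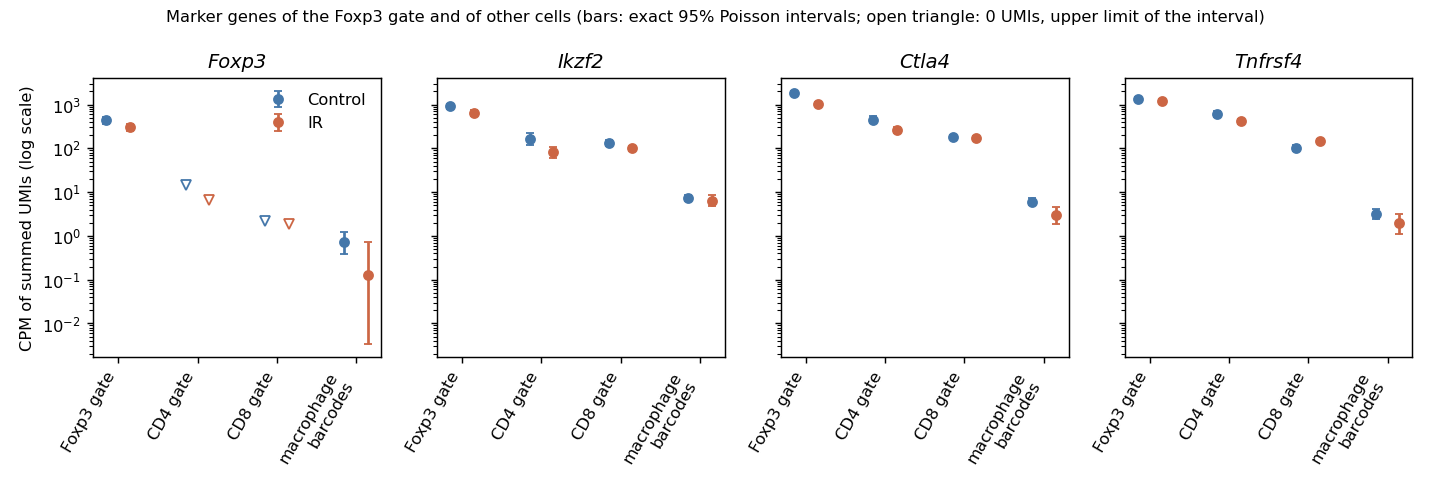
Level of 4 marker genes (y axis, CPM on a log scale) in the Foxp3 gate, the CD4 gate, the CD8 gate and macrophage barcodes of the Control (blue) and IR (orange) libraries. Points are CPM of summed UMIs, bars are exact 95% Poisson intervals, and open triangles mark the upper limit where the rule left 0 Foxp3 UMIs. Ikzf2, Ctla4 and Tnfrsf4 are highest in the Foxp3 gate in both libraries.

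Cell by cell, Ikzf2, Ctla4 and Tnfrsf4 were found together in 42 of 52 Control and 24 of 27 IR gate cells. In the CD4 gate the same 3 genes were found together in 9 of 52 and 11 of 50 cells, and in the CD8 gate in 30 of 224 and 25 of 174 cells. At least 1 UMI of Ikzf2 was present in 94.2% of Control and 92.6% of IR gate cells. Thinned to 1000 UMIs a cell, the expected shares were 61.1% and 50.4%. For Ctla4 the shares were 86.5% and 96.3%, or 70.1% and 56.5% after thinning. Macrophage barcodes, which should lack these genes, had an Ikzf2 UMI in 4.28% and 6.08% and a Ctla4 UMI in 3.75% and 2.63%, at median depths of 8752 and 10859 UMIs. They were defined by having no CD3 UMI, which leaves out barcodes with T cell RNA, so these shares do not measure background. In empty droplets Ikzf2 stood at 37.7 and 37.1 CPM and Ctla4 at 101 and 71.5 CPM. A UMI of Cd4 itself, a weakly captured transcript, was seen in 31 and 20 gate cells.

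Many Control cells sat at the Foxp3 threshold. A single Foxp3 UMI admitted 23 of 52 Control cells and 5 of 27 IR cells, and the highest counts were 7 and 9 UMIs in a cell. The 23 Control cells with 1 Foxp3 UMI had Ikzf2 at 961 CPM and Ctla4 at 1619 CPM, and the 29 with 2 or more had 887 and 2036 CPM. In IR the 5 cells with 1 Foxp3 UMI had Ikzf2 at 1089 CPM and Ctla4 at 613 CPM, and the 22 others had 601 and 1066 CPM. Cells just inside the Foxp3 limit therefore carried Ikzf2 at levels no lower than those of the rest. Their Ctla4 was lower in both libraries. Tnfrsf4 stood at 1074 CPM in them against 1502 CPM in the rest in Control, and at 3030 against 1032 CPM in IR. Just outside the Cd8 limit lay 8 Foxp3 barcodes in each library, with Ctla4 at 805 and 254 CPM and Ikzf2 at 175 and 376 CPM. Outside the CD3 limit, with at most 5 C1q UMIs, lay 6 Control and 4 IR Foxp3 barcodes. Their Ikzf2 stood at 39.7 and 2212 CPM and their Ctla4 at 9.94 and 2020 CPM. The 4 IR barcodes held 10397 UMIs together. They thus carried both markers above the IR gate level, and the gate and its share leave them out. Just outside the C1q limit (6 to 20 UMIs) lay 6 Control and 5 IR barcodes, of 43 and 18 removed by it. Inside it, 31 of 52 Control and 21 of 27 IR gate cells had 0 C1q UMIs. In macrophage barcodes C1qa, C1qb and C1qc stood at 2649, 2932 and 1871 CPM in Control. In IR they stood at 1592, 2060 and 1136 CPM, so a fixed limit need not be equally strict in the 2 libraries.

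The first comparison asked whether the gate took up a different share of the T cells after irradiation. Of barcodes with CD3 and at most 5 C1q UMIs, 52 of 614 Control barcodes were in the gate, or 8.47% (exact Clopper-Pearson 95% interval 6.39 to 10.96). In IR 27 of 530 were, or 5.09% (3.38 to 7.33). The ratio of the shares was 0.602, with an exact counting interval of 0.363 to 0.975. The CD4 gate took 8.47% and 9.43% of the same barcodes and the CD8 gate 36.5% and 32.8%. Over all passing barcodes the gate made up 1.11% in Control and 0.792% in IR, a ratio of 0.712 with an interval of 0.430 to 1.15 that includes 1. The difference shrank when at least 2 Foxp3 UMIs were asked for, to 4.72% and 4.15%. IR T cells were deeper, which gives more chances to see Foxp3. With Foxp3 thinned to 1000 UMIs the expected shares were 3.78% and 1.77%, and with all rules applied after a random thinning they were 4.05% and 3.03%. The intervals do not cover the variation between tumors, which 1 library per group cannot show.

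The genes that set the gate apart from other T cells of the same tumors were the receptors and transcription factors known from activated regulatory T cells. At least 2-fold higher than in both the CD4 and the CD8 gate, in both libraries, were 24 of 2562 genes (0.937%), on the scale of CPM plus 10. Since the gate was cut on measured values, these are a description with no test. Il2ra stood at 629 CPM in Control and 571 CPM in IR, against 150 and 82.7 CPM in the CD4 gate and 37.3 and 50.2 CPM in the CD8 gate. Il1rl1, the receptor for the alarmin IL-33, stood at 76.4 and 80.7 CPM, against 11.6 and 1.76 CPM in the CD4 gate. Klrg1, a receptor of highly differentiated T cells, stood at 274 and 146 CPM, against 30.9 and 29.9 CPM. These 3 receptors mark the gate in both libraries.

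Among transcription factors, Maf stood at 636 CPM in Control and 615 CPM in IR, against 228 and 130 CPM in the CD4 gate and 15.03 and 49.2 CPM in the CD8 gate. Maf takes part in the control of Il10. Prdm1, which encodes the effector regulator Blimp-1, stood at 86.8 and 124 CPM, against 23.1 and 42.2 CPM in the CD4 gate. Izumo1r, the folate receptor 4 of regulatory T cells, stood at 233 and 90.0 CPM, against 57.9 and 28.1 CPM in the CD4 gate. The integrin genes Itgae (135 and 68.3 CPM) and Itgav (257 and 174 CPM), the latter part of integrins that activate latent TGF-beta, were also in this group. Ddit4, Psen2, Glrx, Sema4b, Slamf6 and Gbp3 were ranked with them, as were the markers Ikzf2, Ctla4 and Tnfrsf4. The antibody genes Igkc (104 and 109 CPM) and Ighm (181 and 83.8 CPM) met the rule as well. In empty droplets Igkc stood at 898 and 34.4 CPM and Ighm at 412 and 68.8 CPM, so both were above their gate level in the Control library and below it in the IR library.

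Il1rl1, Il10 and Ccr8 were seen in a minority of the gate cells. Il1rl1 had a UMI in 11 of the 52 Control and 10 of the 27 IR cells, and together with Klrg1 in 6 and 4. Il10, the gene of the suppressive cytokine, was seen in 12 Control and 4 IR cells, of which 11 and 4 also had Gzmb, a granzyme found in 38 of 52 and 23 of 27 of all gate cells. Ccr8, a chemokine receptor used to mark tumor regulatory T cells, had 4 and 3 UMIs, at or near the floor of 3 counts, and no comparison was made.

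The main comparison asked how the RNA of the gate differed 4 days after irradiation. Of 4302 genes with at least 20 UMIs over both libraries, 230 (5.35%) were at least 2-fold higher in IR and 109 (2.53%) at least 2-fold lower, on the scale of log2(CPM + 10). The median log2 ratio over these genes was −0.01. Interferon-stimulated genes were higher in IR as a group, with 23 of 31 past 2-fold. Regulatory T cell identity genes were lower as a group, with 5 of 18 past 2-fold, and so were genes of the T cell receptor complex, with 2 of 17 past 2-fold. The same genes were also read in the CD4 and CD8 gates, which come from the same 2 libraries, and the differences between gates were not tested.

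**Figure D2:**
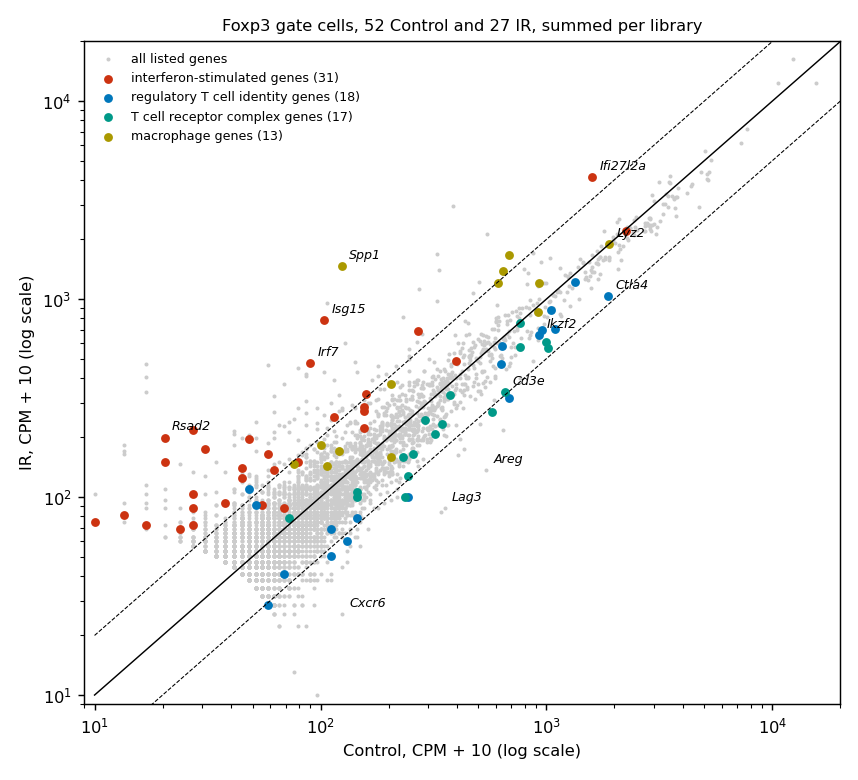
Each point is 1 of the 4302 genes, with CPM plus 10 summed over the 52 Control gate cells on the x axis and over the 27 IR gate cells on the y axis, both on log scales. The solid line is equality and the dashed lines are 2-fold. Red interferon-stimulated genes lie mostly above the upper dashed line, and blue identity and green T cell receptor genes lie mostly below equality.

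The interferon-stimulated genes were higher in the irradiated tumors across nearly the whole list. Of 31 genes, 30 had a higher CPM in IR, and the median log2 ratio was 1.48. In the CD4 gate the median was 1.61 and in the CD8 gate 1.56, beside medians over all genes of −0.01 and −0.00. Isg15, a ubiquitin-like protein joined to other proteins, had 27 UMIs in Control and 248 in IR, or 93.8 CPM (61.8 to 136) and 770 CPM (677 to 872), with non-overlapping counting intervals. Its ratio was 8.21, with a counting interval of 5.51 to 12.7. When every gate cell was thinned to 1000 UMIs, Isg15 had 11 UMIs in 52 Control cells and 19 in 27 IR cells, but when the gate was applied after thinning, 6 UMIs were left in 24 Control cells and 1 in 11 IR cells. Ifit1, which binds foreign RNA, had 5 and 67 UMIs (17.4 and 208 CPM, log2 ratio 2.99). Rsad2, the antiviral enzyme viperin, had 3 and 61 UMIs (10.4 and 189 CPM), a ratio of 18.2 with an interval of 5.93 to 90.6.

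Other members spanned sensors, regulators and effectors. Irf7, the transcription factor that amplifies interferon production, stood at 79.9 CPM in Control and 463 CPM in IR. Bst2, the tetherin that holds virus particles at the cell surface, stood at 260.5 and 683 CPM. Usp18, which takes Isg15 off its targets and dampens interferon signalling, had 1 and 23 UMIs, a ratio of 20.6 with an interval of 3.34 to 847. Ifit3 had 3 and 45 UMIs (log2 ratio 2.87). Ifit2 had 0 and 21, so its level in IR was at least 6.26-fold that of a floor of 3 Control counts over the gate. The most abundant members were Ifi27l2a, at 1584 and 4116 CPM, and Ly6a, the Sca-1 surface protein, at 2244 and 2204 CPM. Ly6a was the 1 member with a lower CPM in IR.

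The promoters of the genes are shown because members of the list share a sequence feature that the choice of cells did not use. The motif searched was GAAANNGAAA or its reverse complement TTTCNNTTTC, the core of the element that interferon-activated factors bind, on both strands and with overlapping matches counted. Promoter windows, 250 bases before to 50 after the start of each gene, came from RefSeq on GRCm38.p6. Of 27025 genes with a window, 1079 (3.99%) held a match. Of the interferon-stimulated genes 24 of 31 had a window, and 13 (54.2%) held a match. Of the interferon-gamma GTPase list 12 of 17 had a window, and 11 held a match. None of 15 identity genes with a window and 0 of 8 T cell receptor complex genes did. The 80 bases that hold the matches are given below for 4 genes, from 5′ to 3′ on the strand of the gene, with the motif in capitals. They cover chr4:156200846-156200925 (minus strand) for Isg15, chr19:34640759-34640838 (plus) for Ifit1, chr12:26456528-26456607 (minus) for Rsad2 and chr3:142620569-142620648 (plus) for Gbp2.
Isg15: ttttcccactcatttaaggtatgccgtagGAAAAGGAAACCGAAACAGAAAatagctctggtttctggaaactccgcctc
Ifit1: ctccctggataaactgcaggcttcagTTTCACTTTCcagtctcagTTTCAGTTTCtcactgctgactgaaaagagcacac
Rsad2: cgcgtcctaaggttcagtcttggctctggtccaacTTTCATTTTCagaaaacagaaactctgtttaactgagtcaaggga
Gbp2: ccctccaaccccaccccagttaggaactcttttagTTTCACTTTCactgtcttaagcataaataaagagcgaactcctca
Isg15 held 3 overlapping matches, Ifit1 held 2, and Rsad2 and Gbp2 held 1 each. A match is a description of the letters, not evidence of binding.

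Within the gate the interferon genes were spread over many IR cells. Of the list without the abundant Ifi27l2a and Ly6a, a median of 18 of 29 genes was detected in an IR cell (2 to 28) and 5 in a Control cell (1 to 20). The median summed level was 4398 CPM in IR cells (985 to 19622) and 1652 CPM in Control cells (526 to 4839), and the ranges overlapped. An Isg15 UMI was seen in 19 of 27 IR and 17 of 52 Control cells, and after thinning to 1000 UMIs the expected shares were 37.3% and 11.6%. At least 1 of Ifit1, Ifit2 and Ifit3 was seen in 19 of 27 IR and 5 of 52 Control cells. The Ifit counts and the numbers of genes detected were not thinned. IR cells were deeper (median 9096 against 4350.5 UMIs), which raises both. For Ifit1 alone the expected shares after thinning were 18.8% in IR and 1.26% in Control.

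Free RNA in the droplets moved in the same direction. In empty droplets the summed level of the 31 genes was 3408 CPM in Control and 7188 CPM in IR, a ratio of 2.11, and in the gate it was 5887 and 12315 CPM, a ratio of 2.09. Gate cells without a UMI of Lyz2, an abundant macrophage gene, were read separately, 20 cells in Control and 11 in IR. In these cells the list stood at 7575 and 22332 CPM, a ratio of 2.95, and its median was 1.46 over the 15 genes listed there. Isg15 stood at 48.2 and 993 CPM in these cells, Ifit1 at 12.04 and 503 CPM, and Irf7 at 60.2 and 923 CPM, while Usp18 had 1 and 2 UMIs. The monocyte genes of these cells also differed, at 120.4 and 1468 CPM. Of the 71 Isg15 UMIs in the 11 IR cells, 27 lay in 1 cell, which also held 168 UMIs of macrophage genes. The part that free RNA had in the interferon values was not tested.

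The GTPases and other genes known for their response to interferon gamma showed no common direction. Of 12 listed genes (of 17), 5 were higher and 7 lower, with 2 at least 2-fold higher and a median of −0.06. In the CD4 and CD8 gates the medians were 0.81 and 0.63. Cxcl10, a chemokine that draws CXCR3 T cells, stood at 118 CPM in Control and 593 CPM in IR. Gbp5 stood at 24.3 and 71.4 CPM, and Gbp2, whose promoter is shown above, at 136 and 227 CPM. Igtp stood at 340.4 and 230 CPM, Iigp1 at 122 and 80.7 CPM, and Irf1, the transcription factor of this branch, at 195 and 171 CPM. MHC class I genes were close to equal, with 6 of 14 higher, 8 lower, 0 past 2-fold and a median of −0.05. The most abundant of them, H2-K1, B2m and H2-D1, had log2 ratios of −0.36, −0.14 and −0.12.

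Of the 12 genes named for the largest higher values, 5 were interferon-stimulated genes (Rsad2, Ifit1, Ifit2, Isg15 and Ifit3). Slfn4, a Schlafen gene of myeloid cells, had 1 UMI in Control and 56 in IR (3.47 and 174 CPM), a ratio of 50.05 with an interval of 8.62 to 2012. Inhba, a subunit of activin A, had 1 and 50 UMIs. Ptgs2, the prostaglandin enzyme COX-2, stood at 48.6 and 456 CPM, and 57.8% of its IR UMIs lay in 1 cell. Flrt3 had 0 and 30 UMIs, at least 8.94-fold the floor. Ier3, an immediate early gene, stood at 97.3 and 944 CPM, with Acod1 (2 and 34 UMIs) and Creb5 (4 and 44 UMIs) completing the group.

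These genes divided when cells with and without Lyz2 were read apart. Slfn4, Inhba, Flrt3 and Ptgs2 had 0 UMIs in the 11 IR gate cells without Lyz2, where 3 counts would be 42.0 CPM, and stood at 223, 200, 120 and 587 CPM in the 16 with Lyz2. The other 8 kept a difference of at least 2-fold in cells without Lyz2, although Ifit2, Acod1 and Creb5 did so with 3, 1 and 2 UMIs in IR. Ier3 stood at 24.1 and 83.9 CPM there. In macrophage barcodes of the IR library Slfn4 stood at 121 CPM, Inhba at 173 CPM, Flrt3 at 38.7 CPM, Ptgs2 at 307 CPM and Ier3 at 1023 CPM. In the whole IR gate Slfn4, Flrt3 and Ptgs2 stood higher than that (174, 93.1 and 456 CPM), and Inhba and Ier3 lower (155 and 944 CPM). The part that macrophage RNA had in these values was not tested.

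Markers of other cell types were read in the gate as whole lists. Of 15 macrophage genes 13 were listed, 10 higher and 3 lower in IR, with a median of 0.86, and their summed level was 6526 CPM in Control and 10769 CPM in IR. In empty droplets that sum was 20800 and 19532 CPM. In the 20 and 11 cells without Lyz2 it was 1096 and 3426 CPM. C1q was itself lower in IR macrophage barcodes, so the C1q limit need not keep out macrophage RNA equally in both libraries. The part this had in the values was not tested. Lyz2 was level (1886 and 1875 CPM), whereas Fcer1g stood at 670 and 1651 CPM, Arg1 at 632 and 1381 CPM and Spp1, osteopontin, at 115 and 1456 CPM with 52.03% of its IR UMIs in 1 cell. The monocyte list of 6 genes summed to 1181 and 2505 CPM, with Plac8 at 316 and 969 CPM and Ms4a4c at 76.4 and 407 CPM. The dendritic cell list of 9 genes summed to 5846 and 4905 CPM, with 4 of them at 0 in both libraries. The natural killer cell list of 7 genes summed to 13.9 and 540.1 CPM, below the 669 and 1794 CPM of empty droplets. Gzma had 2 and 148 UMIs with 80.4% in 1 IR cell, while Ncr1 had 1 and 3 UMIs. Neutrophil genes summed to 13.9 and 180.0 CPM, with 92.6% of S100a8 in 1 IR cell. The B cell list of 5 genes summed to 191 and 90.02 CPM, nearly all Ighm (52 and 27 UMIs), with Cd79a and Ms4a1 at 0 UMIs. Mast cell genes summed to 0 and 3.10 CPM, gamma delta T cell genes to 0 and 49.7 CPM, and stromal and tumor genes to 17.4 and 3.10 CPM.

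Of the 12 genes named for the largest lower values, Cxcr6, a chemokine receptor of T cells resident in tissue, had 33 UMIs in Control and 5 in IR (115 and 15.5 CPM), the largest difference of the group at a ratio of 0.135 with an interval of 0.0413 to 0.349. Areg, a growth factor by which regulatory T cells aid tissue repair, stood at 531 CPM (451 to 623) and 127 CPM (91.3 to 173). Lag3, an inhibitory receptor, stood at 344 and 77.6 CPM. Pglyrp1 stood at 632 and 208 CPM, and Pdcd1lg2, the PD-1 ligand PD-L2, had 20 and 4 UMIs. In the CD4 gate these genes were lower in IR too, with log2 ratios of −1.31 for Cxcr6, −1.23 for Areg, −0.94 for Lag3, −0.72 for Pglyrp1 and −0.46 for Pdcd1lg2. The CD8 gate gave smaller differences, at −0.17, −0.70, 0.09, −0.28 and 0.09 in the same order.

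The other 7 lower genes were Cd81, Mmd, Zeb1, Ppp2r5e, Cetn2, Slc26a2 and Zswim6, with log2 ratios from −2.01 to −1.53. Of the 95 Control UMIs of Cd81, 54.7% lay in 1 cell. In gate cells without Lyz2, 11 of the 12 were lower in IR and 9 were past 2-fold, but apart from Areg those 9 rested on 0 to 3 UMIs in IR. The 12 were picked in the whole gate, which holds these cells, so their direction here was largely set in advance. Of all 1238 genes listed in these cells, 55 were past 2-fold lower. Cxcr6 stood there at 229 CPM in Control with 0 UMIs in IR, and Areg at 939 and 154 CPM. Lag3 was not lower, at 169 and 196 CPM with 14 UMIs in each library, and Cd81 was level at a log2 ratio of −0.07.

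Identity genes of regulatory T cells were mostly lower in IR. Of 18 genes listed, other than Foxp3 itself, 16 were lower and 2 higher, 5 at least 2-fold lower and 1 at least 2-fold higher, with a median of −0.66. None of the 18 was 2-fold lower when free RNA was subtracted, when levels were scaled to T cell receptor genes or when the C1q limit was lifted, and 1 of 11 was in cells without Lyz2. The 4 most abundant had log2 ratios of −0.86 (Ctla4), −0.13 (Tnfrsf4), −0.25 (Capg) and −0.63 (Tnfrsf18, the receptor GITR), and after subtraction of free RNA Ctla4 was level (0.03) and Ikzf2 higher in IR (0.39). Izumo1r stood at 233 and 90.0 CPM and Ikzf4, the Ikaros factor Eos, at 122 and 49.7 CPM. Lrrc32, which holds latent TGF-beta at the surface, Ltb, a lymphotoxin subunit, and Nrp1, a marker of thymus-derived cells, were the other 3 past 2-fold, with log2 ratios of −1.14, −1.11 and −1.03. Nt5e and Entpd1, the ectoenzymes CD73 and CD39 that turn ATP into adenosine, were the 2 higher genes, at 38.2 and 99.3 CPM and 41.7 and 80.7 CPM.

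Genes of the T cell receptor and its signalling complex were lower as well. Of 17 genes 16 were lower, with a median of −0.56 that became 0.03 when an estimate of the free RNA was subtracted. The profile of that estimate came from empty droplets. Its amount was set by 15 macrophage genes in the gate, at 29.7% of the UMIs in Control and 66.2% in IR. Any macrophage RNA in the gate barcodes counts towards that amount. Cd3e stood at 646 CPM in Control and 329 CPM in IR, Trac at 986 and 596 CPM, and Cd2, an adhesion receptor, at 1011 and 556 CPM. Cd247, the zeta chain, stood at 226 and 90.0 CPM. In the CD4 gate the medians of the T cell receptor and identity lists were −0.55 and −0.74, and in the CD8 gate −0.17 and 0.05. All of these IR populations were deeper than their Control counterparts (CD4 gate 3763.5 and 7145.5 UMIs, CD8 gate 6422 and 8888).

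In the gate cells without Lyz2 both differences were smaller. The identity genes summed to 12945 CPM in Control and 12166 CPM in IR, a ratio of 0.940, against 0.702 in the whole gate. The T cell receptor genes gave a ratio of 0.872 there, against 0.659. Ctla4 stood at 2613 and 2391 CPM, Ikzf2 at 1313 and 1021 CPM, and Tnfrsf4 at 1927 and 2992 CPM. When levels were scaled to the summed T cell receptor genes, an alternative chosen after seeing the data, the median of all genes shifted to 0.53 and the identity median to −0.09, that is, lower relative to all genes. Whether lower identity levels reflect less of these transcripts per cell or more RNA of other origin in the IR barcodes was not tested.

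**Figure D3:**
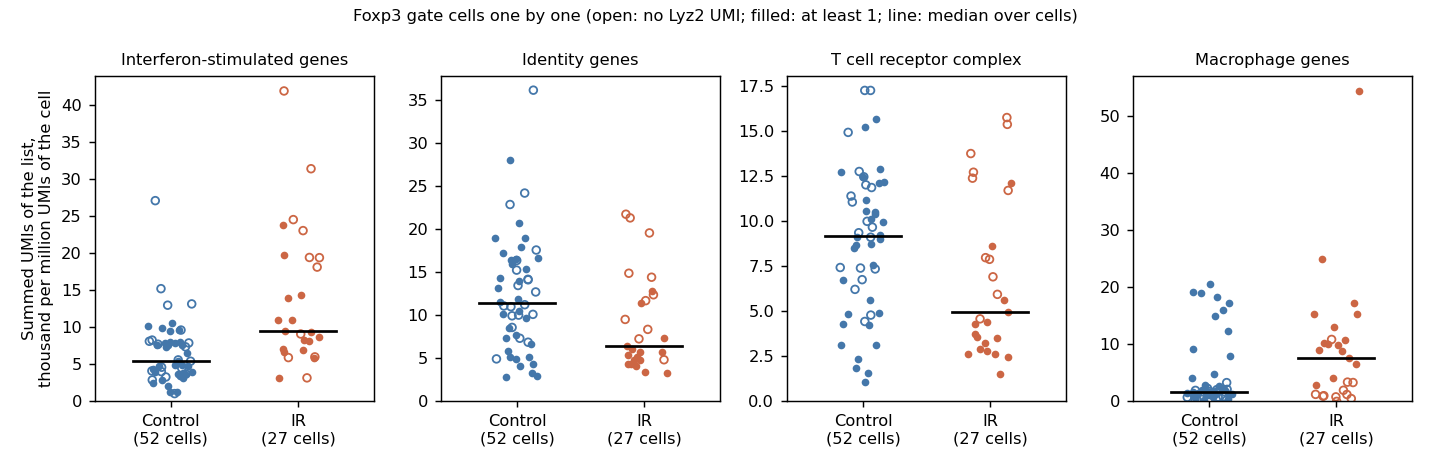
Summed level of 4 gene lists in single gate cells (y axis, CPM of the cell divided by 1000) for the Control (52 cells) and IR (27 cells) libraries; open circles had no Lyz2 UMI, filled circles at least 1, and lines are medians over cells. Interferon medians were 5432 and 9504 CPM, identity medians 11387 and 6447 CPM, T cell receptor complex medians 9183 and 4941 CPM and macrophage medians 1632 and 7643 CPM; the highest identity and T cell receptor values in IR belong mostly to cells without Lyz2.

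The genes of suppression moved in both directions. Of 14 mediators listed (of 15), 6 were higher and 8 lower, 1 and 4 of them past 2-fold, with a median of −0.08. Il10 stood at 122 and 37.3 CPM, with 58.3% of its IR UMIs in 1 cell. In cells without Lyz2 it had 13 UMIs in Control and 0 in IR. Gzmb was close to equal at 1344 and 1226 CPM, Lgals1, the lectin galectin-1, stood at 2042 and 2437 CPM, and Tgfb1 at 361 and 515 CPM. The checkpoint list had 5 of 10 genes listed and a median of −0.86, which is that of Ctla4. With Lag3, Tox, a factor of chronically stimulated T cells, was past 2-fold lower, at 72.9 and 27.9 CPM.

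The effector programme of tissue regulatory T cells stood near 0 as a list, with 8 of 19 genes higher, 11 lower and a median of −0.11. Its most abundant members Maf, Glrx and Id2 had log2 ratios of −0.05, −0.11 and 0.08. Lag3, Cd81 and Gata3, the transcription factor of type 2 responses (135 and 52.8 CPM), were the 3 past 2-fold, all lower. Klrg1 stood at 274 and 146 CPM in the whole gate and at 325 and 420 CPM in cells without Lyz2. The latter values rest on 27 and 30 UMIs, with 14 of the 30 in 1 IR cell, so no change of direction is read from them.

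Costimulatory receptors were lower in 9 of 11 genes with a median of −0.45 and 0 past 2-fold. Icos stood at 941 and 686 CPM, Tnfrsf9, the receptor 4-1BB, at 504 and 323 CPM, and Cd27 at 261 and 134 CPM. In the IL-2 receptor and STAT5 list, 4 of 12 were higher and 8 lower, with a median of −0.42. Il2rb stood at 622 and 459 CPM, Il2rg, the shared chain, at 389 and 220.4 CPM, and Stat5a at 66.0 and 24.8 CPM. Activation-induced genes were level, with 10 of 18 higher and a median of 0.09. Junb and Jund had log2 ratios of 0.02 and −0.01, Nfkbia, the NF-kB inhibitor, stood at 1025 and 1596 CPM and Nr4a3 at 177 and 106 CPM.

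Homing receptors had 6 of 18 genes higher, 12 lower and a median of −0.19. Cxcr4, the receptor for CXCL12, was the 1 gene past 2-fold higher, at 101 and 236 CPM, and Cxcr6 the 1 past 2-fold lower. Ccr2, a receptor for inflammatory chemokines, stood at 584 and 400.5 CPM. The log2 ratio of Cxcr4 was 0.12 in the CD4 gate and 1.08 in the CD8 gate.

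Among p53 targets, which respond to DNA damage, 8 of 20 genes were listed, 5 higher and 3 lower, with a median of 0.00. Cdkn1a, the cell cycle inhibitor p21, was the 1 past 2-fold, at 236 CPM in Control and 549 CPM in IR, a ratio of 2.33 with an interval of 1.75 to 3.12. It stood at 96.3 and 447 CPM in cells without Lyz2. Its log2 ratios were 1.87 in the CD4 gate and 0.997 in the CD8 gate. Bax, a promoter of cell death, was level at 201 and 202 CPM, and Mdm2, the p53 inhibitor, stood at 62.5 and 93.1 CPM. Of BCL2 family genes, 5 of 10 were higher and 5 lower (median −0.05), with Mcl1, a survival factor, at 587 and 767 CPM.

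Genes of dividing cells were read in both libraries. A UMI of Mki67 or Top2a was seen in 15 of 52 Control and 13 of 27 IR cells, and of both in 5 and 9, at different depths. In macrophage barcodes Mki67 was seen in 17.5% and 7.39%. The summed level of the cycling genes was 3004 and 3241 CPM, against 3010.05 and 1899 CPM in empty droplets, and 38.7% and 20.4% of those gate UMIs lay in 1 cell, so no share of cycling cells is read from them. Of 19 cycling genes 11 were higher and 8 lower, 0 past 2-fold, with a median of 0.27. Mcm3, of the replication helicase, stood at 55.6 and 96.2 CPM, and Cenpf, of the mitotic centromere, at 69.5 and 31.0 CPM. Glycolysis genes (14 listed, median 0.18) and heat shock genes (8 listed, median 0.03) had no member past 2-fold.

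**Figure D4:**
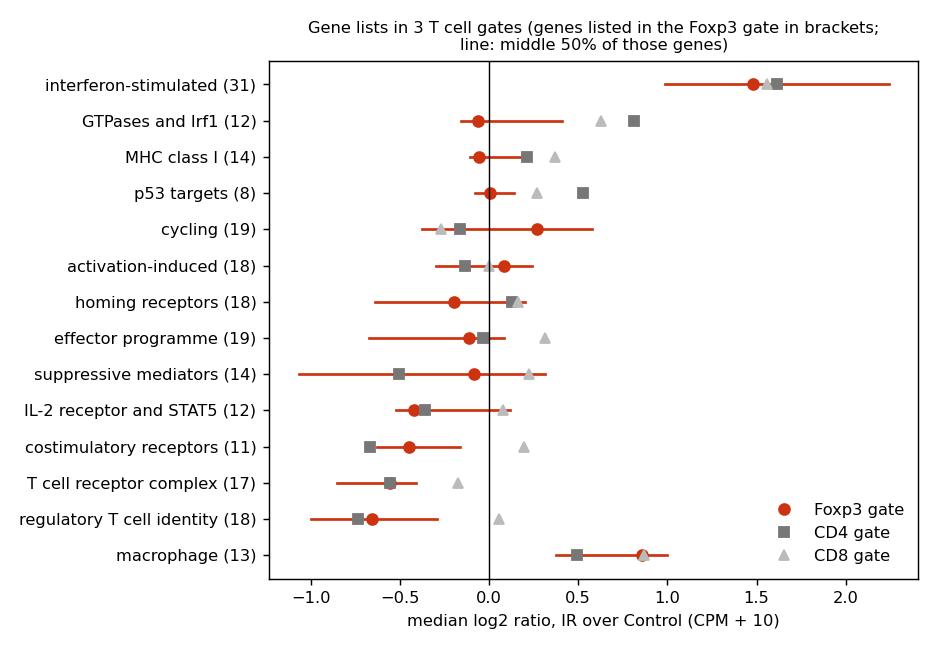
Median log2 ratio of CPM plus 10, IR over Control (x axis), for 14 gene lists (y axis, with the number of genes listed in the Foxp3 gate in brackets) in the Foxp3 gate (red circles), the CD4 gate (grey squares) and the CD8 gate (light triangles). Red lines span the middle 50% of the genes of a list in the Foxp3 gate. Interferon-stimulated genes stand at 1.48, 1.61 and 1.56 in the 3 gates, while identity genes stand at −0.66, −0.74 and 0.05.

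The CD4 gate can hold regulatory T cells whose Foxp3 RNA was not captured, which limits how far it can differ from the Foxp3 gate. Of its cells, 9 of 52 in Control and 11 of 50 in IR had Ikzf2, Ctla4 and Tnfrsf4 together.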

How the data were processed

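Single-cell libraries (10x Chromium 3′ v3.1) of CD45+ cells were made from Control and IR tumors, 1 per group. The deposited files hold unnormalized UMI counts for every gene in every barcode. Cell Ranger 6.0.1 and mm10 are given in the submitters' processing notes, while the matrix headers name Cell Ranger 4. UMIs were summed per library and gate, divided by the gate total (CPM) and compared as log2(CPM + 10), without a test. Exact Poisson and Clopper-Pearson 95% intervals cover counting error only. Genes with under 20 UMIs over both libraries, mitochondrial genes, Xist, Y-linked genes and genes of the gate rule were left out of counts.

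Macrophage barcodes were passing barcodes with more than 5 C1q UMIs and no CD3 UMI. Empty droplets were barcodes of rank 45001 to 90000. Named genes were the 12 largest each way past 2-fold, seen in 15% of the cells of the higher library and above its empty-droplet level, the 20 largest of the gate at 50 CPM or more, the 4 most abundant genes of each list and its 2 largest changes each way. Cells, genes and lists were chosen with earlier results of these data known. Genes outside these rules that are named (Irf7, Bst2, Usp18, Ifit3, Cd3e, Il10, Ccr8, Tgfb1, Gata3, Nr4a3, Ccr2, Cxcr4 and others) were chosen after their values were seen. A few genes that met these rules are not reported here. Alternatives are given in the closing section.

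Positions came from GENCODE vM21 on GRCm38, where 32158 of 32285 genes matched. Python 3.11.15, numpy 2.4.6, scipy 1.17.1, scanpy 1.11.5 and edgeR 4.0.16 (TMM) were used. The counting scripts were tested on simulated data.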

Additional observations from a re-analysis of the deposited data

Results flagged for a closer look

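Foxp3 UMIs lay outside the gate in both libraries. In empty droplets there were 34 Foxp3 UMIs in Control and 13 in IR, or 20.7 CPM (14.3 to 28.9) and 11.8 CPM (6.27 to 20.1), against 438 and 301 CPM in the gate. Elsewhere in the report the same droplets served as the measure of free RNA.

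Barcodes with CD3 and Foxp3 UMIs and no Cd8 UMI, but more than 5 C1q UMIs, numbered 43 in Control and 18 in IR. They were 14.8% of 290 and 16.8% of 107 such CD3 barcodes, at median depths of 11646.5 and 15879 UMIs. Foxp3 was seen in 0.528% and 0.164% of macrophage barcodes, which by definition had no CD3 UMI, at median depths of 8752 and 10859 UMIs. Of the 43 and 18 barcodes, 38 and 17 had an Ikzf2 UMI and 38 and 15 a Ctla4 UMI. The gate left them out, and whether each held 1 cell or a T cell together with a macrophage was not tested.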

How the results depend on the processing

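Neither leaving out a library nor an error between tumors was available with 1 library per group. No paired analysis was possible because each group has 1 library and the labels share no replicate numbers. The alternatives with cells weighted equally, scaling to T cell receptor genes, gate cells without Lyz2, and the deepest cell of each library left out were chosen after seeing the data.

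The ratio of shares was 0.56 to 0.88 over the alternatives that applied the gate anew, and 0.468 for the expected shares with Foxp3 thinned to 1000 UMIs, all within its counting interval. The interferon median stayed above 0 in all 17 alternatives that gave a value, with 2.10 after subtracting the empty-droplet profile and 0.96 with a pseudocount of 50 CPM; after thinning to 1000 UMIs too few genes were listed. The identity median stayed below 0 in all 18, with −0.18 without Lyz2, −0.095 scaled to T cell receptor genes, −0.13 after subtraction and −0.17 without the C1q limit. The T cell receptor median was −0.32 without Lyz2, −0.35 without the highest Scrublet scores, −0.87 with at least 2 Foxp3 UMIs and −0.11 without the C1q limit, and changed sign when scaled to its own genes (0.012) and after subtraction (0.032). Scaling and subtraction moved the median of all genes to 0.53 and 0.18.

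Genes set apart from the CD4 and CD8 gates numbered 106 after thinning and 11 without the C1q limit, of which 4 and 9 were among the 24. Genes past 2-fold numbered 116 higher and 55 lower of 1238 without Lyz2, 778 and 16 scaled to T cell receptor genes, 536 and 456 of 11536 with at least 1 UMI, 102 and 24 of 1960 with at least 50, 20 and 26 of 259 after thinning, 788 and 756 after subtraction, 140 and 67 of 7455 without the C1q limit, and 93 and 13 with a pseudocount of 50 CPM. The lower count was 192 with cells weighted equally and 187 with a pseudocount of 1 CPM.

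Of single genes whose counting interval left out equality, log2 ratios changed sign for Ctla4 (0.028 after subtraction), Ikzf2 (0.095 scaled, 0.39 after subtraction), Klrg1 (0.36) and Lag3 (0.20) without Lyz2, and Isg15 (−1.37) and Zswim6 (0.51) after thinning, which left 24 and 11 gate cells with 6 and 1 Isg15 UMIs. In cells without Lyz2, Klrg1 had 27 UMIs in Control and 30 in IR, and Lag3 had 14 in each. Gzmb, Tnfrsf4, Il2ra and Ccr8, whose intervals included equality, also changed sign under some alternatives (Gzmb to 0.32 and Tnfrsf4 to 0.63 without Lyz2). The dendritic cell list of 3 genes changed sign with cells weighted equally (0.090), without Lyz2 (3.17), scaled (0.13) and after thinning (2.74). Of the other values, 318 list medians and 491 single genes kept their size, and 39 and 96 moved. The causes were not tested.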

Other observations

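Some genes of the gate rested on single cells. Ccl5, a chemokine of effector T cells, stood at 292 CPM in Control and 487 CPM in IR, with 80.3% of its IR UMIs in 1 cell. That cell had 0 Lyz2 and 4 Foxp3 UMIs but 168 UMIs of macrophage genes. Xcl1, the chemokine that attracts type 1 dendritic cells, had 76.0% of its 25 IR UMIs in 1 cell, and Gzmc had 57.6% of 66. Ccl4 had 69.2% of its 120 Control UMIs in 1 cell. Nkg7, a granule protein, stood at 500.2 and 224 CPM and Ccl3 at 396 and 152 CPM. Cd209a, a dendritic cell lectin, had 13 UMIs in Control, all in 1 gate cell with 3 Foxp3 and 12 Ctla4 UMIs.

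The m6A readers, which bind methylated RNA, were sparse in these cells. Ythdf2 had 10 UMIs in Control and 18 in IR, Ythdf1 had 8 and 16, Ythdf3 had 6 and 16 and Ythdc1 had 42 and 36. These counts were not tested.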
